A study of Mus musculus with 30 samples.

Results

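RNA from mouse fracture callus was examined for 10 genes whose products prepare procollagen inside the cell and join it outside. They were *Creb3l1* and *Creb3l2* (transcription factors held in the membrane of the endoplasmic reticulum, ER), *Sec24d* and *Mia3* (export of procollagen from the ER), *Serpinh1* and *Fkbp10* (folding), *P4ha1*, *P4ha2* and *Plod2* (hydroxylation of proline and lysine) and *Lox* (crosslinking). The genes were chosen by symbol, with earlier results of these data known. Each was matched to its Ensembl identifier, so that 10 of the 55416 identifiers in the count table were followed in all 30 samples. The study asked how callus gene expression changed over fracture healing when *Apex1*, which encodes a DNA repair endonuclease that also keeps transcription factors in a reduced state, was removed from limb mesenchyme. Closed tibial fractures without fixation were made in 7- to 12-week-old mice, and callus was taken 3, 6, 10 and 14 days post-fracture (dpf). Mice labelled Apex1 KO carried Prrx1-Cre and 2 conditional alleles (Prrx1-Cre+;Apex1 C/C). WT mice were littermates of the genotypes Prrx1-Cre+/-;Apex1 C/+, Apex1 C/C or Apex1 C/+, so a WT mouse could carry Cre and lack 1 allele in the same cells. The Prrx1-Cre transgene is active in limb bud mesenchyme, the source of chondrocytes and osteoblasts in the limb, and blood, endothelial and muscle cells of the KO callus keep *Apex1*. There were 4 WT and 4 KO mice at 3-dpf, 5 and 3 at 6-dpf, 4 and 3 at 10-dpf, and 4 and 3 at 14-dpf, with both sexes in each group except the 14-dpf KO group, whose 3 mice were all female.

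Fibrillar collagens are made as procollagen chains that enter the ER, where prolyl 4-hydroxylases stabilise the triple helix, lysyl hydroxylases prepare the sites of later crosslinks, and chaperones keep the chains from clumping. Folded procollagen is too long for an ordinary transport vesicle and leaves through an enlarged COPII coat that contains SEC24 proteins. The cargo receptor encoded by *Mia3* brings procollagen to the exit site. After secretion the propeptides are cut off and lysyl oxidase joins the molecules into fibres. Chondrocytes and osteoblasts of the callus secrete large amounts of type II and type I collagen, and several of these genes are known targets of hypoxia-inducible factors or of the CREB3 family.

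Promoter sequence was held for 6 of the 10 genes in a RefSeq table on build GRCm38.p6 (*Creb3l2*, *Sec24d*, *Mia3*, *Serpinh1*, *P4ha1* and *P4ha2*). The 250 bases before the transcription start were searched on both strands for ACGTG or GCGTG, the core letters recognised by hypoxia-inducible factors, and for TGACG, the core of the cyclic AMP response element. Of 32851 promoters in the table, 38.6% held ACGTG or GCGTG and 17.8% held TGACG. The first motif was present in 5 of the 6 genes and the second in 4 of them, and a TGACGTG counts under both. The sequences of *P4ha1* (chr10:59323046-59323295, plus strand), *P4ha2* (chr11:54100674-54100923, plus strand) and *Sec24d* (chr3:123267246-123267495, plus strand) are shown because both prolyl hydroxylase genes had the lowest KO levels relative to WT among the genes with a promoter at 6-dpf, and *Sec24d* holds both motifs close to the start. Capitals mark the motifs on either strand (CACGT and CACGC are the first motif read on the minus strand).
P4ha1: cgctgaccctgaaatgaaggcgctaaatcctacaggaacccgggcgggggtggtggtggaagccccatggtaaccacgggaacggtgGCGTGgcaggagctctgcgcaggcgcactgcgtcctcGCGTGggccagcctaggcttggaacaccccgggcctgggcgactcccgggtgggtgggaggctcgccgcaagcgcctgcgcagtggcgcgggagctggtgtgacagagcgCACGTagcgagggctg
P4ha2: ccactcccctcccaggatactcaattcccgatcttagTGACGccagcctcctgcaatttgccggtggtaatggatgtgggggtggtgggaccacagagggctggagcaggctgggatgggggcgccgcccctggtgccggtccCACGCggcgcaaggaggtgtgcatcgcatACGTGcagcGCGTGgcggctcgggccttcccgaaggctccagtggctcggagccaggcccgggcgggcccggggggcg
Sec24d: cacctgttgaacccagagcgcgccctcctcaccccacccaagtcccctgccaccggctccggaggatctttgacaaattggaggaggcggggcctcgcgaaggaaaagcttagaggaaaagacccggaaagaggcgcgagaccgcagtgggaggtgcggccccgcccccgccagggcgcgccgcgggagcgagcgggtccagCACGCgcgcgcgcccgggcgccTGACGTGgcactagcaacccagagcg
The first motif began 163, 126 and 16 bases before the start in *P4ha1* and 107, 78 and 69 bases before it in *P4ha2*. In *Sec24d* it began at 48 and 24 bases, and the second motif overlapped the nearer of these at 26 bases. A match describes the letters of the window only, and no binding was measured here.

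The libraries held 18334389 to 43111491 counts assigned to genes. Levels are given as CPM, the counts of a gene scaled to a common library total after TMM correction. *Apex1* (chr14:51162177-51164642, plus strand, GRCm39) was at 20.7, 25.3, 25.3, 28.9 and 20.8 CPM in the WT mice and 15.1, 15.2 and 15.9 CPM in the KO mice at 6-dpf, at 17.0 to 27.5 and 14.0 to 16.8 CPM at 10-dpf, and at 19.8 to 27.2 and 14.2 to 18.6 CPM at 14-dpf, without overlap at any of these times. Its log2 fold change, KO over WT, was -0.67 ± 0.11 (SE, adjusted p = 0.0071) at 6-dpf, -0.65 ± 0.13 (SE, adjusted p = 0.0278) at 10-dpf and -0.29 ± 0.19 (SE, adjusted p = 0.367) at 14-dpf with sex as a covariate, and -0.55 with adjusted p = 0.0187 at 14-dpf without it (edgeR). The 10-dpf value did not pass without WT replicate 1, without any 1 of the 3 KO mice or without sex (adjusted p = 0.0791). At 3-dpf the ranges overlapped, with 26.5 to 33.1 CPM in WT and 18.4, 29.1, 27.6 and 34.6 CPM in KO mice, so that the library labelled KO replicate 4 lay above all 4 WT libraries. Chondrocyte, osteoblast and osteoclast marker genes were detected in every group of samples, and no marker was at 0 in a whole group. Because RNA of the whole tissue was measured, fewer cells of a type and less RNA per cell cannot be told apart.

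Genotypes were compared at each time point with edgeR's quasi-likelihood test on all expressed genes, with sex as a covariate and Benjamini-Hochberg adjustment, and log2 fold changes are KO over WT. None of the 10 genes passed the test at 3-dpf. At 6-dpf, 7 of the 10 were lower in KO callus, at 10-dpf 1 was lower and at 14-dpf 5 were lower, and none was higher at any time. Of all genes tested, 0% were lower and 0% higher at 3-dpf, 5.61% and 5.31% at 6-dpf, 3.44% and 3.01% at 10-dpf, and 7.04% and 4.28% at 14-dpf. The 10 genes had median log2 fold changes of -0.11, -0.90, -0.34 and -0.63 at the 4 times, beside medians over all genes of -0.00282, 0.0125, -0.00309 and 0.0430. At 3-dpf no gene in the table passed adjusted p under 0.05 in edgeR, 1216 of 19866 reached 0.05 before adjustment (6.12%), with 0 of the 10 among them, and DESeq2 called 0 of the 10. At that time the values furthest from 0 were those of *Creb3l1*, at 81.1, 54.7, 62.2 and 84.2 CPM in WT and 66.6, 96.0, 89.1 and 82.7 CPM in KO mice (0.21 ± 0.15, SE, adjusted p = 0.877), and *Plod2*, at 253, 229.9, 251 and 273 and 207, 167, 293 and 176 CPM (-0.23 ± 0.16, SE, adjusted p = 0.875). At 6-dpf the count of 7 fell to 4 without WT replicate 4 or KO replicate 1. The KO mice lay below all WT mice for all 10 genes at 6-dpf, for 5 at 10-dpf (*Creb3l1*, *Sec24d*, *Mia3*, *Serpinh1* and *Fkbp10*) and for 9 at 14-dpf (*Plod2* overlapped), against 11.9%, 10.5% and 23.4% of all genes tested. At 3-dpf all 10 overlapped, against 1.7% of genes with KO below WT.

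**Figure D1:**
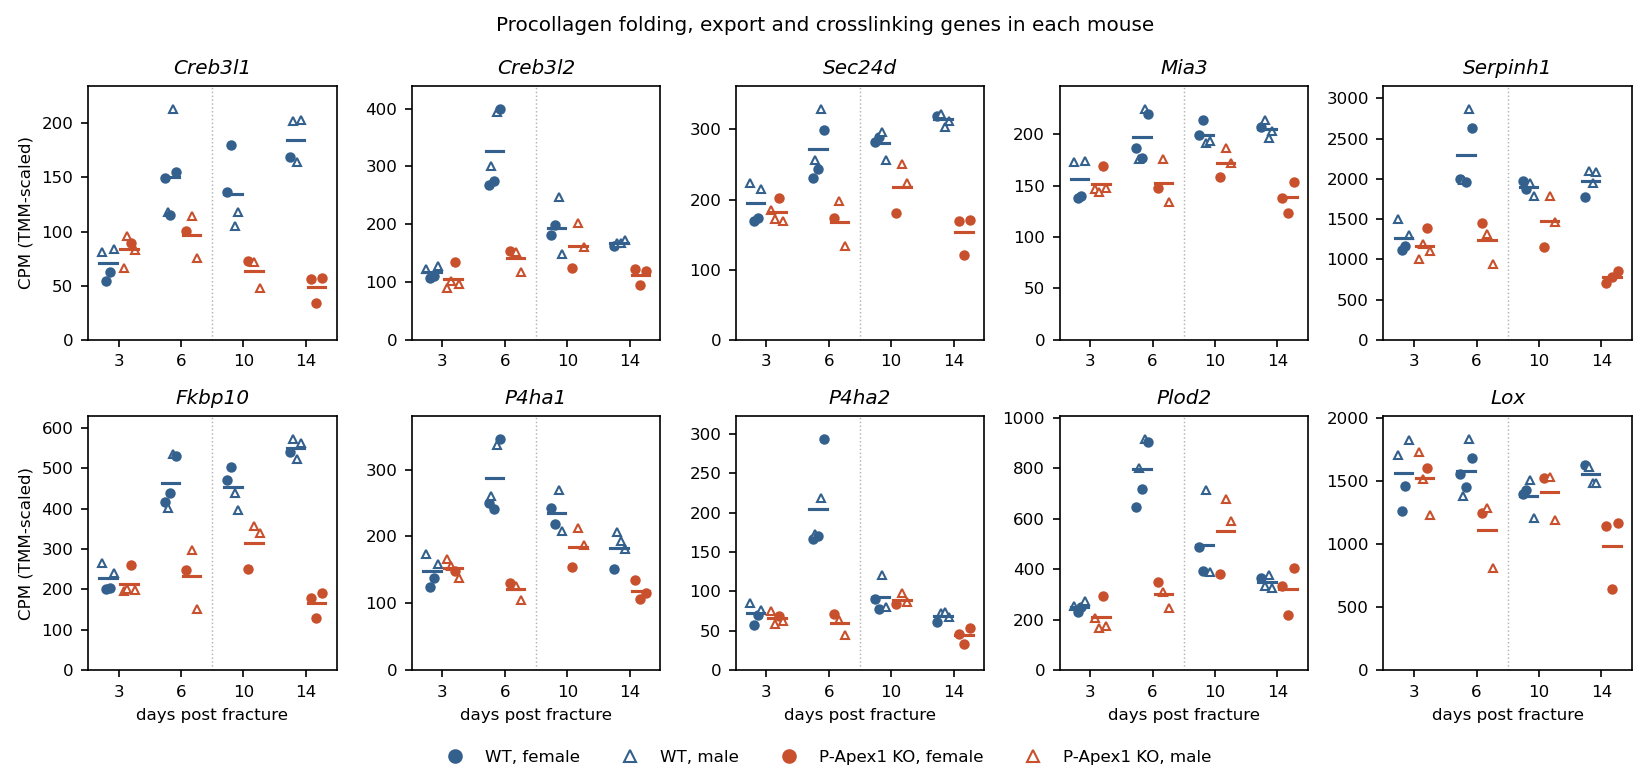
Level of each of the 10 genes in every mouse, in CPM on a linear axis, by dpf and genotype; each point is 1 mouse (filled female, open male), each bar a group mean, and the dotted line marks the change of sample naming after 6-dpf. KO and WT points mix at 3-dpf and are apart for all 10 genes at 6-dpf, and at 14-dpf they mix for *Plod2* only.

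**Figure D2:**
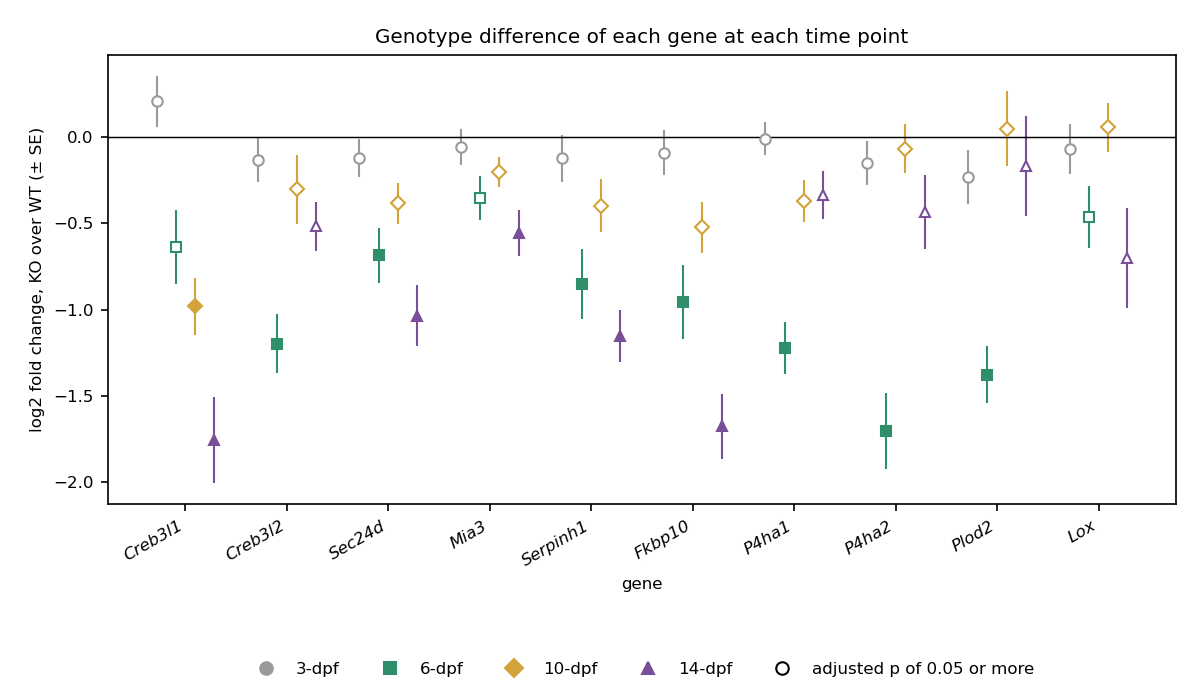
Log2 fold change of KO over WT for each gene at each time, with bars of 1 standard error; filled points passed adjusted p under 0.05. The filled points number 0, 7, 1 and 5 from 3- to 14-dpf and all lie below 0.

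*Creb3l1* (chr2:91812673-91854917, minus strand) and *Creb3l2* (chr6:37304190-37419239, minus strand) encode ER membrane proteins that are cut and moved to the nucleus to switch on secretory genes. In edgeR *Creb3l2* was called lower at 6-dpf and *Creb3l1* at 10- and 14-dpf. DESeq2 also called *Creb3l1* at 6-dpf (-0.64, adjusted p = 0.0272) and *Creb3l2* at 14-dpf (-0.51, adjusted p = 0.0420). *Creb3l2* was at 267, 301, 275, 395 and 399 CPM in WT and 153, 152 and 118 CPM in KO mice at 6-dpf. The lowest WT mouse had 1.75 times the level of the highest KO mouse, and the log2 fold change was -1.20 ± 0.17 (SE, adjusted p = 0.00388). At 10-dpf its groups overlapped, at 149 to 248 and 125 to 203 CPM (log2 fold change -0.30 ± 0.20, SE, adjusted p = 0.407). At 14-dpf it was at 163, 167, 168 and 173 CPM in WT and 123, 94.2 and 118 CPM in KO mice. These did not overlap, but with sex as a covariate the log2 fold change of -0.52 ± 0.14 (SE, adjusted p = 0.056) did not pass in edgeR. Without the covariate it was -0.55 with adjusted p = 0.00229.

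*Creb3l1*, which is required for type I collagen expression in bone-forming cells, had its most negative fold change at 14-dpf. At 6-dpf it was at 149.6, 118, 115, 213 and 155 CPM in WT and 100.2, 114 and 75.3 CPM in KO mice, with a log2 fold change of -0.63 ± 0.21 (SE, adjusted p = 0.0934). The highest KO mouse was 0.809 CPM below the lowest WT mouse. At 10-dpf it was at 136, 180.1, 105 and 118 CPM in WT and 72.4, 71.5 and 47.9 CPM in KO mice. It was the only one of the 10 genes called there in edgeR, with a log2 fold change of -0.98 ± 0.16 (SE, adjusted p = 0.0207). That call was lost without WT replicate 1 (adjusted p = 0.0604), WT replicate 2 (0.0515) or KO replicate 1 (0.164), and without WT replicate 4 the number of genes called rose to 5, with *Creb3l2*, *Sec24d*, *Fkbp10* and *P4ha1* added. By 14-dpf WT mice had 169, 203, 165 and 204 CPM and KO mice 55.9, 34.4 and 57.0 CPM, and the log2 fold change of -1.76 ± 0.25 (SE, adjusted p = 0.0062) was the most negative of the 10 at any time. *Creb3l1* made up 76.3 ± 1.8% (SD, n = 4) of the summed *Creb3l1* and *Creb3l2* CPM per kb of exon in WT and 55.8 ± 3.6% (SD, n = 3) in KO callus at 14-dpf. At 10-dpf the share was 66.7 ± 7.7% (SD, n = 4) and 53.5 ± 8.5% (SD, n = 3), with overlap, and earlier it lay on the other side, at 63.6% in WT and 69.9% in KO callus at 3-dpf and 57.0% and 66.6% at 6-dpf.

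*Sec24d* (chr3:123061103-123159291, plus strand) encodes a cargo-binding COPII subunit. It was at 231, 257, 243, 329 and 299.7 CPM in WT and 173, 199 and 133 CPM in KO mice at 6-dpf, and its log2 fold change was -0.68 ± 0.16 (SE, adjusted p = 0.0253). At 10-dpf the groups were at 256 to 296 and 180.3 to 251 CPM, without overlap. The log2 fold change of -0.38 ± 0.12 (SE, adjusted p = 0.0894) did not pass in edgeR, and passed in DESeq2 with adjusted p = 0.0309. At 14-dpf WT mice had 319, 323, 303 and 312 CPM and KO mice 169, 121 and 171 CPM. The WT mice lay within 19.1 CPM of each other, the lowest of them at 1.78 times the level of the highest KO mouse, with a log2 fold change of -1.03 ± 0.18 (SE, adjusted p = 0.0107).

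*Mia3* (chr1:183103389-183151096, minus strand), which encodes the cargo receptor that brings procollagen to the exit site, had log2 fold changes closer to 0 than those of *Sec24d* at each time. At 6-dpf it was at 187, 176, 177, 225 and 220.2 CPM in WT and 148, 176 and 134 CPM in KO mice, a log2 fold change of -0.35 ± 0.13 (SE, adjusted p = 0.111). The highest KO mouse and the lowest WT mouse were 0.335 CPM apart. At 14-dpf it was at 207, 214, 196 and 203 CPM in WT and 138, 123 and 154 CPM in KO mice, and the log2 fold change was -0.55 ± 0.13 (SE, adjusted p = 0.0363). That call was lost without WT replicate 2 (adjusted p = 0.0837), WT replicate 3 (0.0773) or WT replicate 4 (0.0865) and with library-size scaling (0.141).

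Of the other SEC24 genes, *Sec24a* was called lower at 6-dpf (-0.41, adjusted p = 0.0413), 10-dpf (-0.46, adjusted p = 0.0281) and 14-dpf (-0.59, adjusted p = 0.021). Log2 fold changes of *Sec24b* were -0.09 ± 0.10, -0.31 ± 0.09 and -0.19 ± 0.10 (SE) at these times and those of *Sec24c* were -0.07 ± 0.08, -0.10 ± 0.07 and -0.29 ± 0.11, none past the threshold. *Sec24d* held 49.1 ± 0.64% (SD, n = 4) of the summed SEC24 CPM per kb in WT and 37.5 ± 4.6% (SD, n = 3) in KO callus at 14-dpf. *Mia2*, the paralog of *Mia3*, was at -0.31 ± 0.11 (SE, adjusted p = 0.11) at 14-dpf.

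*Serpinh1* (chr7:98994220-99005076, minus strand) encodes HSP47, the collagen-specific chaperone of the ER. It was at 2001, 1987, 1959.6, 2868 and 2638 CPM in WT and 1456, 1313 and 946 CPM in KO mice at 6-dpf, with a log2 fold change of -0.85 ± 0.20 (SE, adjusted p = 0.0275). At 10-dpf WT mice had 1968, 1871, 1951 and 1789 CPM and KO mice 1156, 1788 and 1469 CPM. The highest KO and lowest WT mice were nearly equal there. The log2 fold change of -0.40 ± 0.15 (SE, adjusted p = 0.161) did not pass in edgeR, and passed in DESeq2 with adjusted p = 0.0414. At 14-dpf WT mice had 1773, 2098, 1949.8 and 2082 CPM and KO mice 706, 784 and 856 CPM, so that the lowest WT mouse had 2.07 times the level of the highest KO mouse, and the log2 fold change was -1.15 ± 0.15 (SE, adjusted p = 0.00381).

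*Fkbp10* (chr11:100305808-100315669, plus strand) encodes FKBP65, a prolyl isomerase that folds procollagen and assists lysyl hydroxylation of its telopeptides. At 6-dpf it was at 416, 400.3, 438, 536 and 529.9 CPM in WT and 248, 298 and 152 CPM in KO mice, a log2 fold change of -0.96 ± 0.21 (SE, adjusted p = 0.0222). At 10-dpf the groups did not overlap, at 397 to 504 and 249 to 358 CPM. The log2 fold change of -0.52 ± 0.15 (SE, adjusted p = 0.0738) did not pass in edgeR, and passed in DESeq2 with adjusted p = 0.00813. At 14-dpf WT mice had 541, 571, 523 and 562 CPM and KO mice 179, 129 and 192 CPM. The lowest WT mouse had 2.73 times the level of the highest KO mouse, and the log2 fold change was -1.67 ± 0.19 (SE, adjusted p = 0.0022).

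The 6-dpf calls of the export and folding genes did not hold in every fit that left out 1 mouse. In these fits the log2 fold changes stayed negative, at -0.80 to -0.54 for *Sec24d*, -1.075 to -0.68 for *Serpinh1* and -1.19 to -0.75 for *Fkbp10*. Some were further from 0 than with all mice although the call was lost. *Sec24d* was lost without KO replicate 1 (adjusted p = 0.0732), WT replicate 2 (0.0563) or WT replicate 4 (0.088). *Serpinh1* was lost without KO replicate 1 (0.0532), KO replicate 3 (0.055), WT replicate 2 (0.0585) or WT replicate 4 (0.083), and *Fkbp10* without KO replicate 1 (0.0835) or WT replicate 4 (0.0817). At 14-dpf *Creb3l1*, *Sec24d*, *Serpinh1* and *Fkbp10* passed in each of the 6 fits that left out 1 mouse. No such fit with sex was possible without WT replicate 1, the only female WT mouse at that time, so the 14-dpf differences with sex as a covariate rest on the comparison of the 3 female KO mice with that mouse.

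*P4ha1* (chr10:59159092-59209126, plus strand) and *P4ha2* (chr11:53981553-54022494, plus strand) encode alternative catalytic subunits of prolyl 4-hydroxylase. *P4ha1* was at 249, 261, 242, 337 and 345 CPM in WT and 130.4, 126 and 105 CPM in KO mice at 6-dpf, and the log2 fold change was -1.22 ± 0.15 (SE, adjusted p = 0.00203). For *P4ha2* the WT mice had 167, 173, 169.8, 219 and 293 CPM and the KO mice 70.9, 64.0 and 44.4 CPM, and its log2 fold change of -1.70 ± 0.22 (SE, adjusted p = 0.00254) was the most negative of the 10 genes at that time. The lowest WT mouse had 1.85 times the level of the highest KO mouse for *P4ha1* and 2.35 times for *P4ha2*.

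*Plod2* (chr9:92424119-92490494, plus strand) encodes the lysyl hydroxylase that acts on collagen telopeptides. It was at 648, 800.5, 719, 915 and 905 CPM in WT and 348, 308 and 247 CPM in KO mice at 6-dpf, with a log2 fold change of -1.38 ± 0.16 (SE, adjusted p = 0.00167). Its lowest WT mouse had 1.86 times the level of its highest KO mouse. The 3 hydroxylase genes and *Creb3l2* were called at 6-dpf in each of the 8 fits that left out 1 mouse, with adjusted p up to 0.0175.

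The hydroxylase genes overlapped between the genotypes at 10-dpf. There *P4ha1* was at 208 to 269 CPM in WT and 154 to 212 CPM in KO mice, with a log2 fold change of -0.37 ± 0.12 (SE, adjusted p = 0.11). *P4ha2* was at 78.0 to 120.4 and 83.7 to 97.9 CPM (-0.07 ± 0.14, SE, adjusted p = 0.826) and *Plod2* at 390.4 to 714 and 381 to 677 CPM (0.05 ± 0.22, SE, adjusted p = 0.921). The sign of *P4ha2* turned positive with library-size scaling, at 0.02.

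At 14-dpf *P4ha1* was at 152, 207, 193 and 181 CPM in WT and 134, 106 and 115 CPM in KO mice, with a log2 fold change of -0.33 ± 0.14 (SE, adjusted p = 0.166). *P4ha2* was at 60.8, 72.2, 73.3 and 67.0 CPM in WT and 45.7, 33.7 and 53.2 CPM in KO mice, with -0.43 ± 0.21 (SE, adjusted p = 0.233). Neither overlapped between the genotypes, and both passed without the sex covariate, at -0.59 with adjusted p = 0.00537 for *P4ha1* and -0.59 with adjusted p = 0.0142 for *P4ha2*. The female WT mouse, replicate 1, had the lowest WT level of both. *Plod2* was at 366, 334, 378 and 327 CPM in WT and 335, 219 and 407 CPM in KO mice, with KO mice on both sides of the WT range, a log2 fold change of -0.17 ± 0.29 (SE, adjusted p = 0.754) with sex and -0.09 with adjusted p = 0.718 without it.

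Among the paralogs at 6-dpf, the log2 fold change of the third catalytic subunit gene *P4ha3* was -0.19 ± 0.17 (SE, adjusted p = 0.539), and its share of the 3 subunits' CPM per kb was 20.5 ± 2.0% (SD, n = 5) in WT and 37.2 ± 0.99% (SD, n = 3) in KO callus. The *P4ha2* share was 27.3 ± 2.4% and 16.7 ± 1.8%. Of the other lysyl hydroxylase genes, *Plod1* was called lower (-0.94, adjusted p = 0.0225) and *Plod3* was not (-0.65, adjusted p = 0.0733). The *Plod2* share of the PLOD genes was 62.9% in WT and 52.2% in KO callus. No share was tested.

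**Figure D3:**
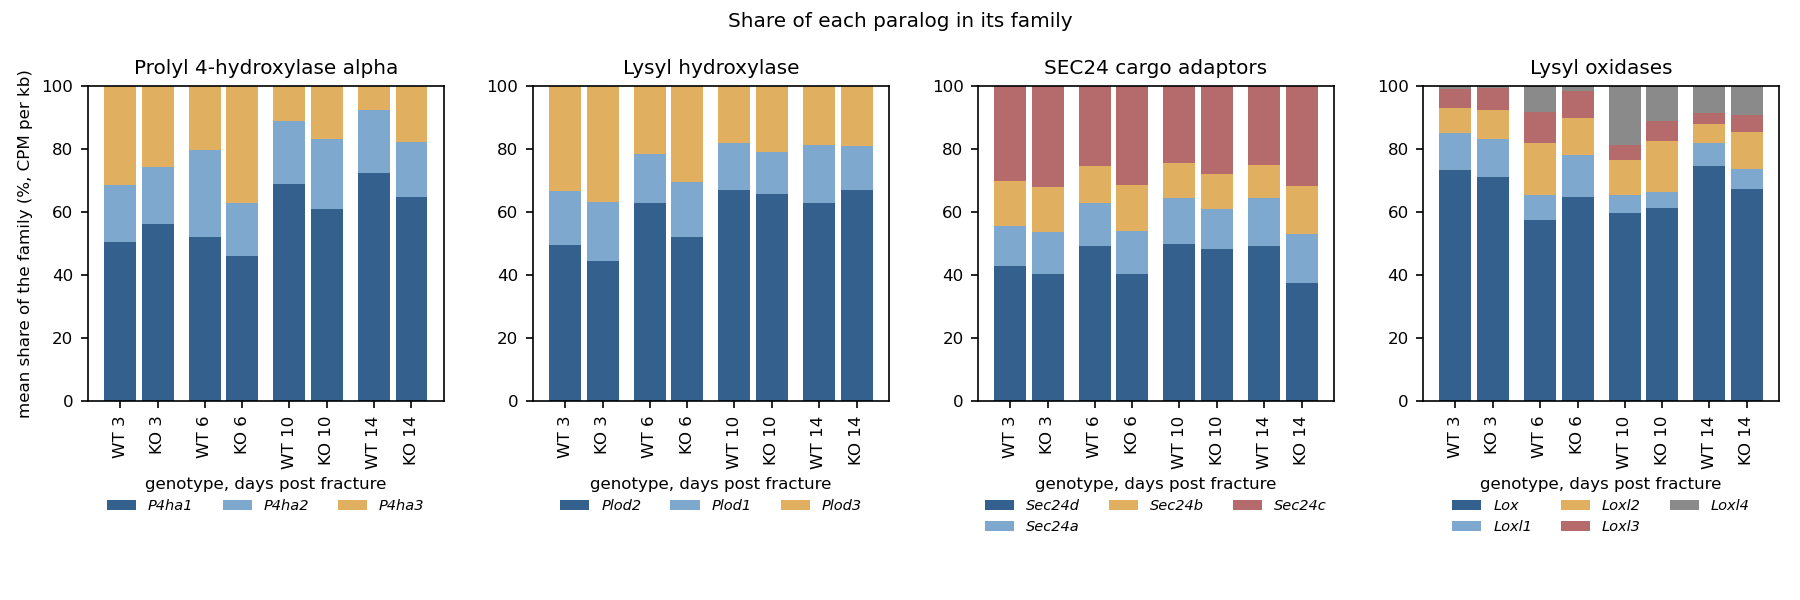
Share of each family's summed CPM per kb of exon taken by each gene, in percent, as stacked group means by genotype and dpf, for the prolyl 4-hydroxylase, lysyl hydroxylase, SEC24 and lysyl oxidase genes. *P4ha3* takes 20.5% of its family in WT and 37.2% in KO callus at 6-dpf, and *Sec24d* takes 49.1% and 37.5% at 14-dpf.

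*Lox*, on chromosome 18, encodes lysyl oxidase, the secreted copper enzyme that starts collagen crosslinks. It was at 1553, 1385, 1449.9, 1831 and 1682 CPM in WT and 1249.6, 1283 and 807 CPM in KO mice at 6-dpf. The groups did not overlap, but the log2 fold change of -0.46 ± 0.18 (SE, adjusted p = 0.138) did not pass in edgeR, and passed in DESeq2 with adjusted p = 0.0471. At 10-dpf it was at 1204 to 1511 and 1188 to 1535 CPM, with 0.06 ± 0.14 (SE, adjusted p = 0.851). At 14-dpf WT mice had 1626, 1615, 1486 and 1483 CPM and KO mice 1146, 644 and 1167 CPM, the KO mice spreading more widely than the WT mice, and the log2 fold change was -0.70 ± 0.29 (SE, adjusted p = 0.169) with sex and -0.62 with adjusted p = 0.0331 without it.

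Of the 4 paralogs of *Lox*, at 6-dpf *Loxl2* (-1.11, adjusted p = 0.0145), *Loxl3* (-0.94, adjusted p = 0.00609) and *Loxl4* (-2.87, adjusted p = 0.000423) were lower in KO callus, and *Loxl1* was at 0.07 (adjusted p = 0.904). *Loxl4* was also lower at 10-dpf (-0.80, adjusted p = 0.0205), where *Loxl1* to *Loxl3* did not pass. At 14-dpf no paralog passed, with values from -1.21 (adjusted p = 0.0798) for *Loxl1* to 0.69 (adjusted p = 0.357) for *Loxl2*. *Loxl4* made up 8.41% of the family's CPM per kb in WT and 1.74% in KO callus at 6-dpf.

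Of the 10 genes, 5 passed at 14-dpf with sex as a covariate (*Creb3l1*, *Sec24d*, *Mia3*, *Serpinh1* and *Fkbp10*) and 9 passed without it, beside 18.4% of all genes lower and 18.8% higher in the fit without sex. Without sex the log2 fold changes of these 5 were -1.87 (adjusted p = 0.000231), -0.997 (0.000447), -0.53 (0.00201), -1.30 (0.000117) and -1.68 (7.64e-05). Without WT replicate 1 and without sex, 8 of the 10 genes passed, beside 16.6% of genes lower and 17.6% higher. That fit set male WT mice against female KO mice, so genotype cannot be told apart from sex in it. In the fit without sex that kept all mice, every WT mouse but replicate 1 was male, so sex is partly mixed with genotype there too.

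Within WT callus, 9 of the 10 genes were higher at 6- than at 3-dpf, beside 15.4% of all genes higher and 15.1% lower. The exception was *Lox*, at -0.01 ± 0.15 (SE, adjusted p = 0.963). The increases on the log2 scale were 1.62 ± 0.16 (SE) for *Plod2*, 1.46 ± 0.19 for *P4ha2*, 1.45 ± 0.15 for *Creb3l2* and 1.08 ± 0.19 for *Creb3l1*, and those of the other 5 ran from 0.31 ± 0.11 for *Mia3* to 0.99 ± 0.17 for *Fkbp10*. The *Sec24d* and *Mia3* calls were lost with library-size scaling (0.21, adjusted p = 0.0978, and 0.065, adjusted p = 0.541), where 7 of the 10 were higher. Both were also lost without WT 3-dpf replicate 2 (adjusted p = 0.054 and 0.135) or replicate 3 (0.0517 and 0.127), and *Mia3* without WT 6-dpf replicate 4 (0.0731) or 5 (0.0559). In KO callus none passed over the same interval in edgeR, beside 7.1% of genes higher and 6.91% lower. Of the 10, 4 had an unadjusted p under 0.05, beside 28.4% of all genes, and the value nearest to passing was 0.52 ± 0.17 (SE, adjusted p = 0.0593) for *Plod2*. DESeq2 called 1 of the 10 higher in KO callus, and 1 to 2 were called in edgeR without KO 3-dpf replicate 3 (2), WT 6-dpf replicate 1 (1) or KO 6-dpf replicate 3 (1).

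The labels name fracture callus at every time, but the study describes tissue cut from around the break at 3-dpf and the whole callus at 6-dpf, so a difference in the tissue taken cannot be told apart from time within a genotype.

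The difference between these changes was tested as an interaction of genotype and time. It passed for *P4ha1* (-1.25 ± 0.18, SE, adjusted p = 0.0036), *P4ha2* (-1.61 ± 0.28, SE, adjusted p = 0.0108), *Plod2* (-1.10 ± 0.23, SE, adjusted p = 0.0317) and *Creb3l2* (-1.03 ± 0.22, SE, adjusted p = 0.033), 4 of 10 genes beside 0.987% of all genes with a lower and 0.318% with a higher interaction. The 3- and 6-dpf genotype differences share no mice. *P4ha1* and *P4ha2* passed in each of the 16 fits that left out 1 mouse, *Creb3l2* was lost in 9 and *Plod2* in 8 of them, with adjusted p up to 0.110 and 0.104. The number called was 2 without WT 3-dpf replicates 1, 2 or 3, KO 3-dpf replicate 3, WT 6-dpf replicates 4 or 5, or KO 6-dpf replicate 3. *Fkbp10* (-0.87 ± 0.25, SE, adjusted p = 0.123), *Creb3l1* (-0.85 ± 0.28, SE, adjusted p = 0.18) and *Serpinh1* (-0.73 ± 0.24, SE, adjusted p = 0.178) had negative values that did not pass.

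Between 10- and 14-dpf the WT mice had lower *P4ha1* (-0.43 ± 0.11, SE, adjusted p = 0.0226) and *P4ha2* (-0.50 ± 0.14, SE, adjusted p = 0.0382) at the later time, 2 of 10 beside 4.92% of genes lower and 6.19% higher. Both calls were lost without WT 10-dpf replicates 1 or 3 or WT 14-dpf replicates 1 or 4, and 1 was lost without WT 10-dpf replicate 2 or WT 14-dpf replicates 2 or 3, and none passed without the sex covariate. In KO mice none of the 10 passed over this interval in edgeR, beside 0.228% of genes lower and 0.0304% higher. Of the 10, 7 had an unadjusted p under 0.05, beside 14.3% of all genes, and the lowest adjusted p values were 0.0529 for *Serpinh1* (-0.78 ± 0.15, SE) and 0.063 for *Fkbp10* (-0.89 ± 0.18). The number called in KO mice was 1 without WT 10-dpf replicate 3, 2 without KO 10-dpf replicate 1, 3 without KO 14-dpf replicate 3 and 3 in DESeq2. No interaction of genotype with this interval passed for the 10 genes in edgeR, beside 0.396% of genes lower and 0.0406% higher. An unadjusted p under 0.05 was found for 6 of the 10 and 13.1% of all genes, with -1.14 ± 0.24 (SE, adjusted p = 0.0614) for *Fkbp10*. The number called was 2 without KO 10-dpf replicate 1, 1 without KO 14-dpf replicate 2 and 2 in DESeq2. Sample names follow another scheme from 10-dpf on, so 6- and 10-dpf were not compared.

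Per kb of exon, *Lox* and *Serpinh1* were the most abundant of the 10 in WT callus at 3-dpf, at 317 ± 51.4 and 181 ± 24.7 CPM per kb (SD, n = 4), without overlap between them. *Fkbp10* followed at 61.5 ± 8.47 and *Plod2* at 39.1 ± 2.73. *Sec24d* (26.4 ± 3.80), *Creb3l1* (26.1 ± 5.31) and *P4ha1* (22.9 ± 3.35) overlapped between mice, as did *Creb3l2* (14.7 ± 1.23) and *Mia3* (12.5 ± 1.60), although within each of the 4 mice *Sec24d* and *Creb3l1* lay above *P4ha1* and *Creb3l2* above *Mia3*. *P4ha2* was lowest at 8.25 ± 1.35. At 6-dpf *Serpinh1* (327 ± 61.3, n = 5) and *Lox* (320.5 ± 36.4) were level in WT callus, while KO callus had 177 ± 37.6 and 226 ± 53.9 CPM per kb (n = 3).

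Over the 30 samples, log2 CPM centred within each day correlated between pairs of these genes from r = 0.25 for *Creb3l1* with *Plod2* to r = 0.98 for *Sec24d* with *Fkbp10*. Each gene's correlation with the mean of the other 9 ran from 0.70 for *Plod2* to 0.96 for *Sec24d*. These are descriptions over mice that share group and library. The centring took both genotypes of a day together, so the genotype differences given above remain in these correlations. Of 13786 other genes, those most like the mean of the 10 by this measure were *Lman1* (0.984), *P3h1* (0.983), *Aldh18a1* (0.975), *P4hb* (0.974) and *Hdlbp* (0.974). *P3h1* and *P4hb* encode a prolyl 3-hydroxylase and the shared subunit of prolyl 4-hydroxylase.

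A wider list of 63 genes of procollagen processing that are not among the 10 was counted in the same fits. At 3-dpf none passed, and at 6-dpf 29 were lower and 1 was higher, and the median of their log2 fold changes was -0.41. At 10-dpf 6 were lower and 1 higher (median -0.07), and at 14-dpf 16 were lower and 2 higher (median -0.28), or 33 lower without the sex covariate. The number lower at 6-dpf was 13, 19 and 10 without WT replicates 2, 3 and 4 and 16 without KO replicate 1. At 10-dpf it was 0 without WT replicate 1, WT replicate 2 or KO replicate 1, 10 without WT replicate 4 and 1 without KO replicate 3, and at 14-dpf 7 without WT replicates 2, 3 or 4 and 25 without KO replicate 2. At 6-dpf 7 of 8 proline-modifying genes were lower, among them *P3h2* (-1.52 ± 0.28, SE, adjusted p = 0.012), which encodes a prolyl 3-hydroxylase. Of the ER transcription factor pathway, *Atf6*, *Xbp1* and the protease genes *Mbtps1* and *Mbtps2* did not pass at any time.

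A list of 18 genes covered COPII coats, ER exit and the KDEL receptors, which return proteins to the ER. Of these, 10 were lower at 6-dpf, the most negative being the KDEL receptor gene *Kdelr3* (-0.96 ± 0.19, SE, adjusted p = 0.0129). At 14-dpf 7 were lower, the most negative being another KDEL receptor gene, *Kdelr2* (-1.13 ± 0.16, SE, adjusted p = 0.00551). At 10-dpf *Sec24a* was lower and *Sar1b*, a coat GTPase gene named here after its value was seen, was higher (0.36 ± 0.08, SE, adjusted p = 0.0445). Of 18 ER chaperone and isomerase genes, 4 (*Fkbp7*, *Fkbp9*, *Fkbp11* and *Fkbp14*) were lower and 1 was higher at 6-dpf, and 1 was lower at 10- and at 14-dpf. *Fkbp11*, an isomerase gene abundant in secretory cells, was lower at 6-dpf (-1.06 ± 0.14, SE, adjusted p = 0.00223), 10-dpf (-0.67 ± 0.16, SE, adjusted p = 0.0473) and 14-dpf (-1.90 ± 0.16, SE, adjusted p = 0.00092). *Tmem38b*, which encodes an ER cation channel, was higher at 6-dpf (0.65 ± 0.15, SE, adjusted p = 0.025).

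Of 4 lysyl-modifying genes, 3 (*Plod1*, *Colgalt1* and *Colgalt2*) were lower at 6-dpf, including the collagen galactosyltransferase gene *Colgalt2* (-2.16 ± 0.27, SE, adjusted p = 0.00241), which at 14-dpf was the 1 gene of that list called higher (1.48 ± 0.17, SE, adjusted p = 0.00225). Among 7 genes for removal of propeptides, 2, 3 and 4 were lower at 6-, 10- and 14-dpf and 1 (*Pcolce2*) was higher at 14-dpf. *Adamts3*, a procollagen N-proteinase gene, was at -1.44 ± 0.13 (SE, adjusted p = 0.000535) at 6-dpf. *Bmp1*, the procollagen C-proteinase gene, was at -0.62 ± 0.11 (SE, adjusted p = 0.0211) at 10-dpf and -1.59 ± 0.15 (SE, adjusted p = 0.00111) at 14-dpf. The *Loxl* genes, described above, made up the last list, with 3, 1 and 0 of 4 lower. *P3h1* was among the 4 of 8 proline-modifying genes lower at 14-dpf (-1.22 ± 0.19, SE, adjusted p = 0.00709).

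The collagen transcripts that these proteins serve moved with genotype and time as well. At 6-dpf *Col2a1* of cartilage (-4.68 ± 0.32, SE, adjusted p = 0.000271), *Col1a1* (-0.88 ± 0.25, SE, adjusted p = 0.0498) and *Col1a2* (-0.94 ± 0.23, SE, adjusted p = 0.0315) were lower in KO callus and *Col3a1* was at -0.19 ± 0.22 (SE, adjusted p = 0.633). At 10-dpf *Col1a1* was lower (-1.01 ± 0.24, SE, adjusted p = 0.042), and no collagen gene of the list of 8 was without the sex covariate. At 14-dpf *Col1a1* (-2.55 ± 0.21, SE, adjusted p = 0.000883) and *Col1a2* (-2.35 ± 0.19, SE, adjusted p = 0.000867) were lower, and *Col2a1* was called higher with sex as a covariate (1.84 ± 0.33, SE, adjusted p = 0.0132) although its groups overlapped, and no collagen gene of the list was called higher without it.

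The summed CPM of the 10 genes was set against that of *Col1a1*, *Col1a2*, *Col2a1* and *Col3a1*. The collagen sum was 35443 CPM in WT and 31740.3 CPM in KO callus at 3-dpf, 102534 and 47044 CPM at 6-dpf, 98196 and 53307 CPM at 10-dpf, and 147016 and 37152 CPM at 14-dpf (group means). The sum of the 10 genes went from 6569.7 CPM in WT to 3624 CPM in KO callus at 6-dpf and from 5552 to 2870.0 CPM at 14-dpf. For each 1000 CPM of collagen there were 64.0 ± 3.3 CPM (SD, n = 5) of the 10 genes in WT and 77.4 ± 7.4 CPM (SD, n = 3) in KO callus at 6-dpf. At 10-dpf the ratios were 55.0 ± 4.3 (SD, n = 4) and 88.0 ± 12 (SD, n = 3), and at 14-dpf 38.2 ± 4.8 (SD, n = 4) and 77.1 ± 11 (SD, n = 3). The KO mice lay above all WT mice in this ratio at 6-, 10- and 14-dpf, and the ranges overlapped at 3-dpf. The sum is mostly *Lox* and *Serpinh1*, and single genes did not all follow it. At 6-dpf the KO mean of the gene's own ratio was higher for 6 genes, such as *Lox* (15.4 ± 0.50 in WT and 23.6 ± 2.2 in KO callus, SD), and lower for 4. These 4 were *P4ha2* (1.98 ± 0.35 and 1.28 ± 0.19), whose KO mice lay below all WT mice, and *Plod2* (7.80 ± 0.85 and 6.50 ± 0.97), *P4ha1* (2.79 ± 0.21 and 2.61 ± 0.36) and *Creb3l2* (3.18 ± 0.33 and 3.03 ± 0.32), which overlapped. At 10-dpf the KO mean was higher for 9 genes and lower for *Creb3l1* (1.37 ± 0.27 and 1.20 ± 0.15), and at 14-dpf it was higher for all 10, with KO mice above all WT mice for 8. The collagen sum was lower in KO callus at 6-, 10- and 14-dpf, so a gene of equal CPM also has a higher ratio there. The share of all genes higher by this ratio was not counted, so these counts cannot be read as particular to the 10 genes. No ratio was tested.

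**Figure D4:**
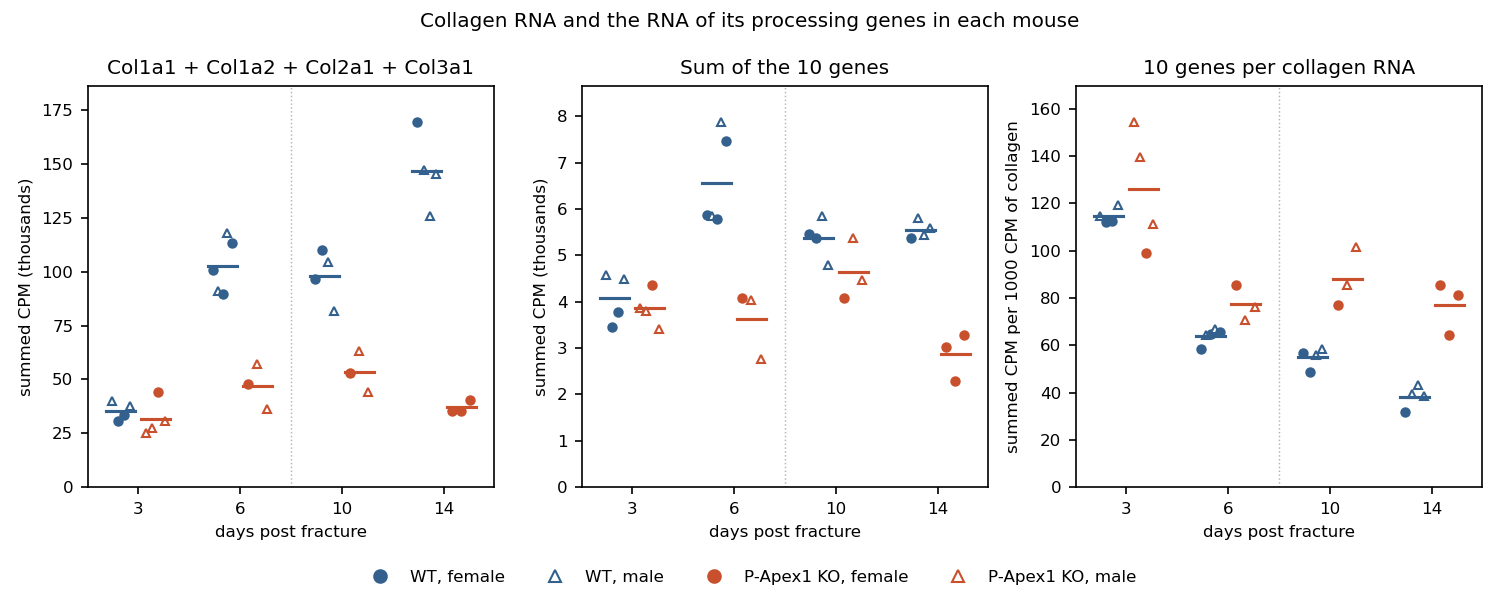
Summed CPM of *Col1a1*, *Col1a2*, *Col2a1* and *Col3a1* (left), of the 10 genes (middle) and of the 10 genes for each 1000 CPM of collagen (right), in every mouse by dpf and genotype, with group means as bars. In the right panel the 14-dpf means are 38.2 in WT and 77.1 in KO, and each KO mouse of 6-, 10- and 14-dpf lies above the WT mice of its time. The lower collagen sum of KO callus at those times raises this ratio by itself.

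Osteoblast markers were lower in KO callus at 6-, 10- and 14-dpf, and the 11 chondrocyte markers were called lower at 6-dpf but not at 10- or 14-dpf. At 6-dpf *Creb3l2*, *Sec24d*, *Serpinh1*, *Fkbp10*, *P4ha1*, *P4ha2* and *Plod2* were called lower. All 11 chondrocyte markers were lower at that time, with a summed level of 30029 to 55007 CPM in WT and 2267 to 4646 CPM in KO mice. Of the osteoblast markers 9 of 10 were lower, at 3203 to 4394 CPM in WT and 1220.0 to 1971 CPM in KO mice. At 6-dpf 4 of 5 hypertrophic chondrocyte markers were lower too. The sum of these 5 was 11513 to 15205.5 CPM in WT and 7322 to 10791 CPM in KO mice at 10-dpf, without overlap. At 14-dpf it was 1733 to 4627 CPM in WT and 2840 to 6107 CPM in KO mice, with overlap. At 10-dpf 0 chondrocyte and 7 osteoblast markers were lower, with osteoblast sums of 9529 to 12425 CPM in WT and 6103 to 8710 CPM in KO mice.

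At 14-dpf, when *Creb3l1*, *Sec24d*, *Mia3*, *Serpinh1* and *Fkbp10* were lower, 6 of 10 osteoblast markers were lower (8 without sex), at 10040.5 to 13174 CPM in WT and 3327 to 7210 CPM in KO mice. The 11 chondrocyte markers were called higher in KO callus with sex as a covariate and 2 of 11 without it. Their sum was 937.9 CPM in the female WT mouse, 3867 to 5760 CPM in the 3 male WT mice and 4527 to 5426 CPM in KO mice. Markers of osteoclasts, which derive from blood cells, were lower in 5 of 7 cases at 10-dpf and 7 of 7 at 14-dpf, the 14-dpf sums being 12065 to 13702 CPM in WT and 1588 to 3092 CPM in KO mice. The part of these cell types in the differences of the 10 genes was not tested.

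Markers of other cell types were called higher in KO callus. At 6-dpf 6 of 8 macrophage and 9 of 10 skeletal muscle markers were higher, the muscle sum being 2825 to 5065 CPM in WT and 6521 to 14999.7 CPM in KO mice, and 4 lymphocyte and 3 adipocyte markers were higher. At 10-dpf 5 of 8 macrophage, 3 lymphocyte and 4 adipocyte markers were higher, the macrophage count being 1 of 8 without the sex covariate. At 14-dpf 6 of 8 macrophage, 6 of 8 neutrophil, 3 erythroid and 1 lymphocyte marker were higher, and without sex 6 erythroid, 10 lymphocyte and 5 skeletal muscle markers were. Fibroblast markers were 0, 1 and 1 lower and endothelial markers 0, 1 and 3 lower at 6-, 10- and 14-dpf, with 1 endothelial marker higher at 14-dpf, and no marker of any list passed at 3-dpf.

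A list of 12 genes known to respond to hypoxia was counted because *P4ha1*, *P4ha2*, *Plod2* and *Lox* are known targets of the same factors. At 6-dpf 9 of the 12 were lower in KO callus, with a median of -0.97 on the log2 scale, among them *Car9* (-2.69, adjusted p = 0.000531) and *Slc2a1* (-1.46, adjusted p = 0.0012), genes named after their values were seen. Their summed level was 1253 to 1636 CPM in WT and 882 to 1015 CPM in KO mice. At 10-dpf *Vegfa* alone was lower (-0.80, adjusted p = 0.00377). At 14-dpf none was lower and *Bnip3* was higher (1.07, adjusted p = 0.0106), with 5 higher without the sex covariate and sums of 728 to 753 CPM in WT and 784 to 941 CPM in KO mice. The part of hypoxia response in the differences was not tested.

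Scaling by library size in place of TMM moved the median over all tested genes by 0.187 at 6-dpf and 0.269 at 14-dpf on the log2 scale, and the share of calls that were lower went from 51.4% to 22.6% and from 62.2% to 29.0%. Under it 7 of the 10 genes were lower at 6-dpf, 1 at 10-dpf and 4 at 14-dpf, with none higher. At 10-dpf the shift was 0.078 and the lower share of calls went from 53.3% to 35.3%. From 3- to 6-dpf it went from 49.4% to 78.6% in WT mice (shift -0.239) and from 75.7% to 32.8% for the interaction (shift 0.230), where 4 of the 10 genes were still lower and none higher. From 10- to 14-dpf it went from 44.3% to 61.2% in WT mice, from 88.2% to 64.6% in KO mice and from 90.7% to 75.0% for the interaction, with shifts of -0.054, 0.103 and 0.157.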

How the data were processed

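Fracture callus RNA of 30 mice, 1 library a mouse, was measured by sequencing of ribosomal and globin RNA depleted stranded libraries. Per the labels and methods, the authors made reads with bcl2fastq (2.20 in the submitters' notes, written differently in the methods), aligned them with STAR 2.7.0d to mouse build mm39, and counted uniquely mapped reads per gene on the reverse strand with featureCounts. The submitters' processing notes also name DESeq2 1.32.0. The deposited values are raw counts per Ensembl gene, and totals per sample were 18334389 to 43111491. Symbols, positions and exon lengths came from GENCODE M39 on GRCm39, and 667 of 55416 identifiers had no position there.

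The 10 genes, the other gene lists and the tests were chosen with earlier results of these data known. Genes were filtered and fitted in edgeR 4.0.16 (R 4.3.3) with TMM scaling, glmQLFit and glmQLFTest, within each time point or each pair of times of one naming scheme, with sex as a covariate and an adjusted p under 0.05 as the threshold. The standard error of a log2 fold change is its size divided by the square root of the F statistic. CPM used TMM factors over all 30 samples, and log2 CPM a prior count of 2. Precision within a group is limited by the 3 to 5 mice. The fits were tested on simulated data with known changes. Alternatives were DESeq2 1.42.0, other scalings and filters (none, or 10 counts in every sample), no sex term, all samples in 1 model, a replicate block, and leaving out each mouse. The marker, collagen and hypoxia counts without the sex term and the motif letters were added after seeing the data.

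Genes outside the 10 were named by a rule: the most negative and most positive gene called without overlap in each procollagen list and time, the paralogs of the 10, the collagens *Col1a1*, *Col1a2*, *Col2a1* and *Col3a1*, and the 5 genes of highest correlation with the mean of the 10. Genes outside this rule (*Car9*, *Slc2a1*, *Vegfa*, *Bnip3*, *Atf6*, *Xbp1*, *Mbtps1*, *Mbtps2*, *Colgalt1* and others that spell out a small count) were named after their values were seen. Replicate numbers are shared between genotypes. Deviations of same-numbered mice correlated at 0.062 to 0.39 at 3-dpf and -0.25 to 0.18 at the other times, and since at no time were all pairs above 0.1, mice were not paired. No 2 libraries of a group agreed within sampling noise.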

Additional observations from a re-analysis of the deposited data

Results flagged for a closer look

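In the 3-dpf KO group, replicate 3 stood apart from the other 3 mice for *Mia3* (169 CPM) and *Fkbp10* (259.9 CPM), being the highest in both. It was the only female mouse of that group, and it was also highest in the summed level of the 8 fibrillar collagen genes (48614 CPM against 28018 to 33483 CPM) and of the chondrocyte markers (423 against 131 to 247 CPM), whose part in the values was not tested. Of 55 groups of 4 or 5 mice and genes looked at, these 2 were the ones where an extreme mouse passed Dixon's critical value, and chance alone gives about 1 in 20.

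The genotype difference changed between 3- and 6-dpf by a test of the interaction for *Creb3l2* (-1.03 on the log2 scale, adjusted p = 0.0330, edgeR), *P4ha1* (-1.25, adjusted p = 0.00360), *P4ha2* (-1.61, adjusted p = 0.0108) and *Plod2* (-1.10, adjusted p = 0.0317).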

How the results depend on the processing

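With 3 to 5 mice a group, many counts moved with 1 mouse or setting, and the cause was not tested. For DESeq2, the other filters, the fit of all samples, the replicate block and the fits with sex that left out 1 mouse, the share of all genes called was not counted. The same holds for the fits without sex at times other than 14-dpf. Counts in these settings therefore cannot be read as particular to the genes followed. Of the 10 genes, the number lower at 10-dpf was 4 in DESeq2 and 4 with no filter, and at 14-dpf 9 without sex, 9 with all samples in 1 model and 8 without sex and WT replicate 1. With sex, the 14-dpf fit without that mouse could not be fitted, and without sex it set male WT mice against female KO mice. Of the 63 pathway genes, the number higher at 6-dpf was 2 in DESeq2, 2 without sex, 3 with library size and 2 with no filter. At 10-dpf it was 3 in DESeq2, 0 without sex, 2 with library size, 3 with no filter and 0 with all samples, and at 14-dpf 4, 4 (library size), 1 (no filter) and 5 (all samples). The number lower at 14-dpf was 33 without sex, 33 with all samples, 33 without sex and WT replicate 1, and 8 with library size. From 3- to 6-dpf in KO, 1 of the 10 was higher in DESeq2 and 2 were higher and 1 lower with library size. From 10- to 14-dpf, the interaction called 2 in DESeq2, 1 without sex and 1 with all samples. WT called 1 higher in DESeq2, and 0 lower without sex and 1 with all samples. KO called 3 lower in DESeq2, 4 without sex, 1 with library size and 3 with all samples.

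With the replicate number as a block in place of sex, 4 of the 10 and 11 pathway genes were lower and 0 higher at 6-dpf, where *Sec24d* (adjusted p = 0.0887), *Serpinh1* (0.104) and *Fkbp10* (0.0788) were lost. The block gave 0 pathway genes higher at 10-dpf, 25 lower and 1 higher at 14-dpf, 2 interactions of the 10 from 3- to 6-dpf (*Creb3l2*, 0.149, and *Plod2*, 0.169, were lost), and from 10- to 14-dpf 1 interaction, 0 lower in WT and 4 lower in KO. The numbers did not pair the mice by the check above, although all 4 pairs correlated positively at 3-dpf, where 0 of the 10 were called with the block. From 3- to 6-dpf in WT 7 of the 10 were higher with it, *Sec24d* (0.0546) and *Mia3* (0.124) being lost.

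Leaving out 1 mouse at a time gave 4 to 7 of the 10 lower at 6-dpf, 0 to 5 at 10-dpf, 2 to 5 interactions from 3- to 6-dpf, 0 to 2 from 10- to 14-dpf, 7 to 9 higher in WT and 0 to 2 higher in KO from 3- to 6-dpf, and 0 to 3 lower from 10- to 14-dpf in WT and 0 to 3 in KO. Pathway genes lower were 10 to 26, 0 to 10 and 7 to 25 at 6-, 10- and 14-dpf, and higher 0 to 2, 0 to 4 and 1 to 7.

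Signs that turned were those of values that had not passed. At 3-dpf *P4ha1* was 0.033 without sex, 0.040 with the block and 0.0047 with all samples. At 10-dpf *P4ha2* was 0.018 with library size and *Lox* -0.029 with the block, and at 14-dpf *Plod2* was 0.094 with library size. From 3- to 6-dpf *Lox* in WT was 0.018 in DESeq2 and 0.012 with all samples. From 10- to 14-dpf the *Plod2* interaction was -0.24 without sex, -0.34 with the block and -0.24 with all samples, those of *Creb3l2* and *P4ha1* were 0.014 and 0.10 with library size, and in WT *Serpinh1* was 0.0426, 0.0421 and 0.0432 in those 3 settings, *Mia3* was -0.029 with library size and *Apex1* was 0.0014 with the block. Leaving out 1 mouse, ranges across 0 at 3-dpf were -0.0088 to 0.31 (*Creb3l1*), -0.24 to 0.0049 (*Mia3*), -0.34 to 0.017 (*Fkbp10*), -0.10 to 0.050 (*P4ha1*) and -0.23 to 0.022 (*Lox*). At 10-dpf they were -0.18 to 0.11 (*P4ha2*), -0.18 to 0.26 (*Plod2*) and -0.028 to 0.16 (*Lox*), and at 14-dpf -0.38 to 0.043 (*Plod2*). From 3- to 6-dpf they were -0.11 to 0.089 for *Lox* in WT, and in KO -0.21 to 0.053 (*Sec24d*), -0.077 to 0.12 (*Mia3*), -0.064 to 0.25 (*Serpinh1*), -0.11 to 0.35 (*Fkbp10*) and -0.30 to 0.027 (*P4ha2*). From 10- to 14-dpf they were -0.39 to 0.13 (*Creb3l2*), -0.16 to 0.14 (*P4ha1*) and -0.33 to 0.34 (*Plod2*) for interactions, and -0.0019 to 0.059 (*Mia3*) and -0.088 to 0.040 (*Serpinh1*) in WT.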
